A study of Mus musculus with 4 samples.

Results

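The genes described here are the variable (V) gene segments of the T cell receptor alpha and beta chains, named Trav and Trbv in the mouse. All genes whose symbol starts with Trav or Trbv and that had 10 or more unique molecular identifiers (UMIs, each standing for 1 captured transcript) over the 4 count matrices were taken, which gave 75 of the 163 such genes listed and of 31053 genes in all. The 75 were 54 of 128 Trav genes and 21 of 35 Trbv genes. They held 98.5% of all Trav UMIs (4184 of 4250) and 99.9% of all Trbv UMIs (11223 of 11231). Just under the limit stood Trav6-5 and Trav9n-1 with 9 UMIs each, and just inside it Trav4-2 with 10 and the pseudogene Trav8-2 with 11. Usage was counted by cells in CD8 T cells (Cd8a or Cd8b1 detected, Cd4 not), CD4 T cells (Cd4 detected, neither Cd8 gene detected) and Foxp3-positive T cells, all with at least 1 UMI of Cd3d, Cd3e or Cd3g.

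The samples were tumours of B16F10, a transplantable mouse melanoma line that resists checkpoint blockade, dissociated to cell suspensions, freed of red cells, debris and dead cells, and sequenced from the 5' ends of transcripts in single-cell droplets. There was 1 library for each of 4 groups. The control library came from tumours for which the labels name no agent. The aPD-1 group carries the name of an antibody against the checkpoint receptor PD-1, the D+F group had the anthracycline doxorubicin and the ROCK kinase inhibitor fasudil, and the D+F+P group had these with the antibody. Values given for the 3 treated libraries follow this order throughout, and a control value, where given, comes first. The labels give neither the number of mice behind a library nor their age, strain, doses or times. Every comparison is therefore between libraries, with no replicate check and no test, and the exact Clopper-Pearson 95% intervals given in brackets cover counting error only.

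Each T cell builds its receptor by joining 1 V segment to D and J segments on the beta chain and to a J segment on the alpha chain, so that cells descended from 1 precursor carry the same segments. The junction formed at the joint, the third complementarity-determining region (CDR3), is the most variable part of the receptor and contacts the peptide held by an MHC molecule, while the V segment itself encodes the first and second such loops. When a T cell that recognises a tumour antigen divides, its V segments become common among the tumour's T cells. The count matrices record the V segment but not the junction, so cells that share a Trav and a Trbv gene need not be 1 clone.

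The results turn on a small number of segments, whose coding ends are printed because they are the part of the receptor that the matrices can identify. Each line gives the last 240 bases of the V exon (exon 2 of the gene) from GENCODE release M21 on GRCm38, read 5' to 3' on the coding strand. Lower case is framework and loop sequence, and the capitals run from the codon of the last in-frame cysteine, where the CDR3 begins, to the end of the germline segment. Trav19 and Trbv12-1 made up the leading pair of the aPD-1 library, Trav14-2 with Trbv12-1 and with Trbv31 the first and second pairs of the D+F library, and Trav12-1 with Trbv13-2 that of the D+F+P library.
Trav19: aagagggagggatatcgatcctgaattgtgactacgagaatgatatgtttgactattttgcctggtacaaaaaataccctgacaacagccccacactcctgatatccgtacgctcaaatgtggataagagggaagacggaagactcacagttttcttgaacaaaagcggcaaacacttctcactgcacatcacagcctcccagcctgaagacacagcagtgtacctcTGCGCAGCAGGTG
Trbv12-1: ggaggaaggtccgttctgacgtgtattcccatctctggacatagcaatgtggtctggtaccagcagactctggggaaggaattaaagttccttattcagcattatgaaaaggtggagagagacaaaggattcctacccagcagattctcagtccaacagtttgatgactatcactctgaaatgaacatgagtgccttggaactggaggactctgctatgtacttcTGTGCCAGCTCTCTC
Trav14-2: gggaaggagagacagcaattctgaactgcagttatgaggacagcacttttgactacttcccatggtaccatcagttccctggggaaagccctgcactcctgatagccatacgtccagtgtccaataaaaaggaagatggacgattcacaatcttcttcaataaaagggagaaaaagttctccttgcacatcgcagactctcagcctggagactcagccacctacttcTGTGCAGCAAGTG
Trbv31: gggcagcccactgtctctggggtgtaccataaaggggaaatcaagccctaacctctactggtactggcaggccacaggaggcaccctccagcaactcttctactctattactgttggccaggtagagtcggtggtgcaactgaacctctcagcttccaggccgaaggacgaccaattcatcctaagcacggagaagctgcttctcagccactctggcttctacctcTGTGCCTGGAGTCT
Trav12-1: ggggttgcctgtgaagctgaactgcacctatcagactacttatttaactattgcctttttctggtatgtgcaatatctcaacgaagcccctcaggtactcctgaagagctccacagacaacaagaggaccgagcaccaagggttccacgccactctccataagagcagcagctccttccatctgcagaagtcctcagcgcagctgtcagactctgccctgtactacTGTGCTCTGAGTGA
Trbv13-2: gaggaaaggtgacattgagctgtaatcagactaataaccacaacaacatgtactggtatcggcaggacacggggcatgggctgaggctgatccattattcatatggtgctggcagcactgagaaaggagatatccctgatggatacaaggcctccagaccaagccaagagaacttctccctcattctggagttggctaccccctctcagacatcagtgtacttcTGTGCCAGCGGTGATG
The 3 Trav segments lie on the plus strand at chr14:53845588-53845827, chr14:53640986-53641225 and chr14:53538499-53538738. The Trbv segments lie at chr6:41113828-41114067 and chr6:41121593-41121832 on the plus strand and at chr6:41557693-41557932 on the minus strand. Germline sequence supplies 13 to 16 bases after the start of that cysteine codon in these 6 segments, and what follows in a rearranged receptor is not in the files. Over their annotated sequences, the 3 Trav genes were 53.9% to 66.2% identical to each other and the 3 Trbv genes 53.1% to 55.6%, so the leading receptors of the 3 treated libraries do not rest on near-identical alpha segments.

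Duplication of the mouse alpha locus limits which Trav genes can be counted. Copies of a segment carry the letters d or n in their names, and a read that fits 2 identical genes is not counted for either by common counters. Of 108 Trav genes annotated as functional V genes, 38 had a copy of identical sequence, and 0 of these 38 reached 10 UMIs, with 36 of them at 0. Of 21 with a copy that was 98% or more but not fully identical, 12 were members, and of 49 whose nearest copy was under 98%, 41 were. None of the 22 functional Trbv genes had a copy of 98% or more, and 20 of them were members. Trav11 and Trav11d, which encode the alpha chain of invariant natural killer T cells, are such an identical couple and had 0 UMIs each, so these cells cannot be read from the matrices. Copies that differ at a few bases could both be counted, as Trav14-3 and Trav14n-3, neither of which has an identical copy (97.2% for the closest). Their last 150 bases of V exon are shown, in which capitals mark the 3 bases that differ.
Trav14-3: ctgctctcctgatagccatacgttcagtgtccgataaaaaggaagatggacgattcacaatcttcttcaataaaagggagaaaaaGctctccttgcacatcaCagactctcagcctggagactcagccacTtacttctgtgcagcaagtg
Trav14n-3: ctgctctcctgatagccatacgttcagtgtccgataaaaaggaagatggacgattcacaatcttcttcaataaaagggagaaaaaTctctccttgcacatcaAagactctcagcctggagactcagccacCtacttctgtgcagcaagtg
The windows lie at chr14:53763545-53763694 and chr14:53370426-53370575 on the plus strand, and the whole 309-base V exons differ at 6 bases. Trav14-3 had 96 UMIs and Trav14n-3 had 122. Trav14-3 was called in 2, 1 and 15 CD8 T cells of the treated libraries and Trav14n-3 in 12, 0 and 7. Values for other Trav genes with close copies are uncertain in this respect, and alpha usage is read below as usage of the countable segments.

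After filters on genes, UMIs and mitochondrial share, 2240 to 2490 barcodes per library remained, with median UMIs of 16162.5 in control and 9589, 12887.5 and 1876 in the treated libraries. CD8 T cells numbered 20, 407, 242 and 646, at median UMIs of 4578.5, 6246, 4951 and 5076.5. CD4 T cells numbered 6, 40, 29 and 52, and Foxp3-positive T cells 12, 38, 27 and 39, of which 5, 17, 7 and 15 were also CD4 T cells. The T cell markers were detected in every class, Cd4 was at 0 in CD8 T cells by rule, and the 4 NK markers and 2 gamma-delta markers were at 0 in the CD4 and Foxp3-positive classes of all 4 libraries. In CD8 T cells 1 or more NK marker UMIs stood in 5%, 11.3%, 9.92% and 15.02% of cells, and 1 or more UMIs of the 4 melanoma markers in 80%, 64.9%, 80.2% and 55.1%. The part of other cells and of free RNA in the V gene values was not tested beyond the background given next. Of 10602 barcodes, 69 were shared between 2 libraries, and none of these carried the same V pair in both.

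A V gene was called in a cell where 1 Trav (or Trbv) member had the single highest number of UMIs. Beta calls were made in 75% of control CD8 T cells (50.9 to 91.3, 15 of 20), 88.0% of aPD-1 (84.4 to 91.0, 358 of 407), 85.5% of D+F (80.5 to 89.7, 207 of 242) and 75.5% of D+F+P (72.04 to 78.8, 488 of 646). Alpha calls were fewer, at 40%, 65.8%, 58.7% and 50.3%, and both chains were called in 7, 241, 128 and 292 cells. The lower D+F+P rate went with low-ribosomal barcodes: 29.4% of its CD8 T cells had under 12% ribosomal protein UMIs, against 6.61% to 10% in the other libraries. Its beta call rate was 48.4% in those cells and 86.8% in the rest. The part of RNA quality in the D+F+P values was not tested further than by leaving these cells out. Barcodes that should lack a receptor set the background. In barcodes with 10 or more pigment gene UMIs and no Cd3 UMI, at medians of 16318.5 to 28823.5 UMIs, a Trbv UMI was present in 0.468%, 2.02%, 1.25% and 7.11%, below the rates in T cells. In the 57 NK-type barcodes of D+F+P without Cd3 the share was 19.3% (10.1 to 31.9, 11 barcodes, each call at a median of 1 UMI), against 1 of 24, 0 of 33 and 0 of 22 in the other libraries.

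Trbv12-1 was the most used beta segment of CD8 T cells in the aPD-1 and the D+F library, and Trbv13-2 in the D+F+P library. The aPD-1 library had Trbv12-1 in 129 of 358 called cells, 36.0% (31.1 to 41.3), followed by Trbv2 with 39 cells (10.9%) and Trbv29 with 31 (8.66%). Trbv12-1 also led the D+F library, with 57 of 207 cells, 27.5% (21.6 to 34.2), followed by Trbv31 with 28 (13.5%) and Trbv17 with 22 (10.6%). Of the D+F+P cells, Trbv12-1 was carried by 18 of 488 cells, 3.69% (2.20 to 5.77), and the lead was held by Trbv13-2 with 99 cells, 20.3% (16.8 to 24.1), then Trbv12-2 with 67 (13.7%) and Trbv29 with 51 (10.5%). In the control library 15 called cells were spread over 9 genes, with Trbv29 in 4 of them, and 0 of 15 held Trbv12-1 or Trbv13-2, which leaves an upper interval bound of 21.8% for each. The intervals of Trbv12-1 in aPD-1 and D+F overlap, and both lie above that of D+F+P.

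Averaged over the 3 treated libraries with equal weight, the 5 most used beta segments of CD8 T cells were Trbv12-1 at 22.4% (3.69% to 36.0% over libraries), Trbv13-2 at 10.7% (4.35% to 20.3%), Trbv29 at 7.98% (4.83% to 10.5%), Trbv31 at 7.20% (0.820% to 13.5%) and Trbv12-2 at 6.83% (0 to 13.7%). Trbv12-2 was called in 0 of 358 aPD-1 cells, although 12 had a UMI of it. Trbv2 averaged 6.80%, Trbv13-3 5.01%, Trbv19 5.01%, Trbv3 3.92%, Trbv17 3.87%, Trbv16 3.79%, Trbv14 3.68% and Trbv20 2.99%. Trbv13-3 and Trbv16 varied little, from 3.91% to 5.80% and from 2.79% to 4.71%, whereas Trbv17 ran from 0.410% in D+F+P to 10.6% in D+F. The remaining segments averaged less: Trbv13-1 1.998%, Trbv4 1.96%, Trbv5 1.66%, Trbv15 1.55%, Trbv1 1.49%, Trbv26 0.669%, Trbv23 0.440% and the pseudogene Trbv24 0%.

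**Figure D1:**
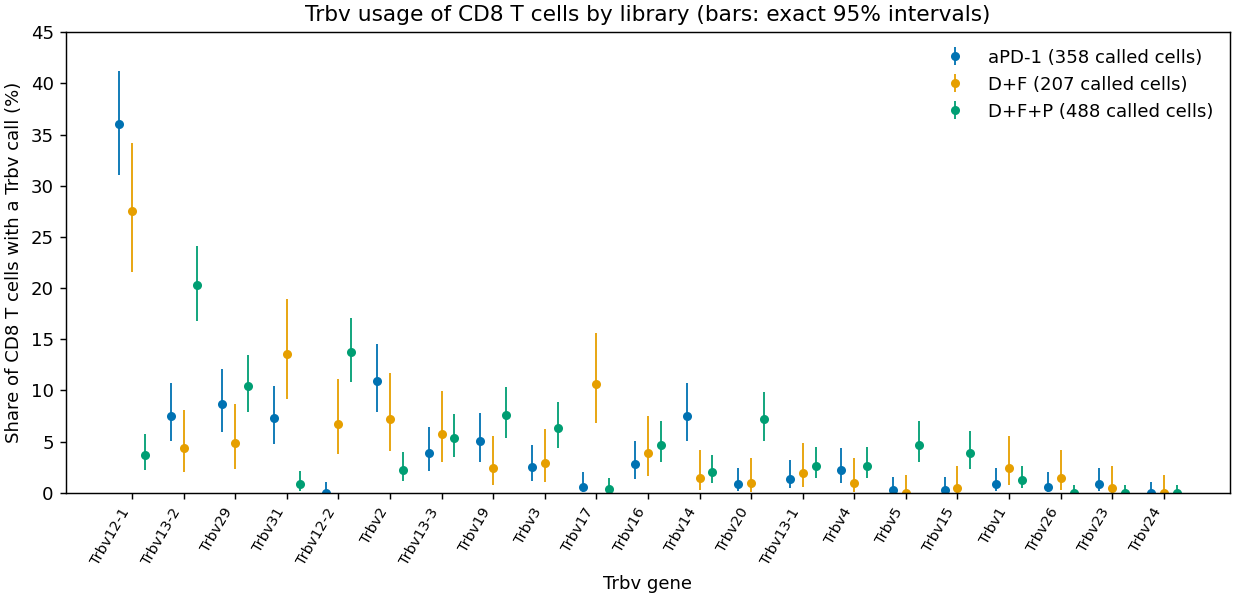
Share of CD8 T cells with a Trbv call that carry each of the 21 Trbv genes (y axis, %), by library, ordered by the mean over the 3 treated libraries; points are shares and bars exact 95% intervals for counting error. Trbv12-1 stands at 36.0% in aPD-1, 27.5% in D+F and 3.69% in D+F+P, while Trbv13-2 stands at 20.3% in D+F+P.

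The most used alpha segment was a different one in each treated library. Trav19 was carried by 78 of 268 called aPD-1 CD8 T cells, 29.1% (23.7 to 34.9), against 3 of 142 D+F and 1 of 325 D+F+P cells. Trav14-2 was carried by 46 of 142 D+F cells, 32.4% (24.8 to 40.8), against 1 of 268 in aPD-1 and 4 of 325 in D+F+P. Trav12-1 was carried by 61 of 325 D+F+P cells, 18.8% (14.7 to 23.5), against 1 of 268 in aPD-1 and 4 of 142 in D+F. Each of these 3 segments was thus frequent in 1 library and nearly absent from the other treated ones. The same held for Trav8d-2, with 57 aPD-1 cells (21.3%) against 1 and 2 in D+F and D+F+P, and Trav6-7-dv9, with 27 aPD-1 cells (10.1%) against 2 and 5. Copies with d or n in their names made up 33.2% of aPD-1 alpha calls (27.6 to 39.2), 10.6% of D+F (6.03 to 16.8) and 15.7% of D+F+P (11.9 to 20.1), and Trav8d-2 was 57 of the 89 such aPD-1 cells.

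To place these differences beside other genes, each member was compared between libraries by the share of all CD8 T cells with a UMI, and a gene counted as apart at 2-fold or more, among genes seen in at least 10 cells of the couple of libraries. In D+F+P against aPD-1, 20 of 43 members were higher (percent of all genes: 4.93%) and 13 were lower (1.81%), with a median log2 ratio of 0.68 against 0.01 over all genes. In D+F against aPD-1, 8 of 30 members were higher (1.65%) and 7 lower (5.47%), with medians of -0.15 and -0.14. Between D+F+P and D+F, 16 of 42 were higher in the former (10.3%) and 9 lower (1.60%), with medians of 0.52 and 0.17. Members were thus counted as apart in both directions. The 10 cells were summed over both libraries, so a member could enter through the library where it was high. Trav8-1, with 28 D+F+P and 0 aPD-1 cells, and Trav19, with 1 and 81, are examples. These counts therefore describe the libraries and are no test of usage. The shares depend on depth, so cells were also thinned to 1000 UMIs, which left 19 of 407 aPD-1, 13 of 242 D+F and 116 of 646 D+F+P CD8 T cells out, and classes were assigned again on the thinned UMIs, which gave 304, 162 and 396 CD8 T cells. Of the members seen in 10 thinned cells, 9 of 20 were then higher (12.6% of all genes) and 8 lower (3.55%) in D+F+P against aPD-1, 3 of 15 higher (5.82%) and 6 lower (8.58%) in D+F against aPD-1, and 6 of 16 higher (14.9%) and 4 lower (4.55%) between D+F+P and D+F. Against the 20 control CD8 T cells, 10 of 19 members were higher in aPD-1 (25.6%) and 6 lower (7.48%), 7 of 12 higher in D+F (18.1%) and 1 lower (7.82%), and 18 of 32 higher in D+F+P (30.7%) and 4 lower (7.99%). The members higher in aPD-1 and in D+F were seen in 0 of 20 control cells and reached 10 cells through the treated library alone. The intervals lay apart for 1 higher and 0 lower members in aPD-1, 1 and 0 in D+F, and 1 and 1 in D+F+P. These counts against control therefore say little about usage. CD4 T cells were too few for the same reading, since 0, 1 and 1 members (Trbv13-2) reached 10 cells and 0 were 2-fold apart. Of all genes, 7.42% were higher and 4.22% lower in D+F against aPD-1, 12% and 2.26% for D+F+P against aPD-1, and 11.5% and 4.09% between D+F+P and D+F.

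The members furthest apart included those of the leading receptors. Relative to aPD-1, in D+F Trav14-2 had a UMI in 49 of 242 cells (20.2%) against 1 of 407 (0.246%), Trbv17 in 9.09% against 0.491%, and Trav6d-5 in 10 of 242 (4.13%) against 0 of 407. At the other end stood Trav14n-3, in 0 of 242 against 12 of 407, Trav8d-2 in 0.413% against 14.3%, and Trav19 in 1.24% against 19.9%. In D+F+P against aPD-1, Trav12-1 had a UMI in 67 of 646 cells (10.4%) against 2 of 407 (0.491%), and Trav8-1 and Trav12-3 in 28 and 16 of 646 cells. Lowest were Trav19, in 1 of 646 against 81 of 407, Trav17, in 1 against 9, and Trav8d-2, in 7 against 58. Between D+F+P and D+F, Trbv5 was seen in 29 of 646 cells and in 0 of 242, Trav5-1 in 10 and 0, and Trav9-1 in 13 and 0. Trav6d-5 (0 of 646 against 10 of 242), Trav14-2 (0.774% against 20.2%) and Trbv17 (0.464% against 9.09%) lay at the low end.

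Many CD8 T cells with both calls shared a small number of Trav-Trbv pairs. In the aPD-1 library Trav19/Trbv12-1 was held by 75 of 241 cells, 31.1% (25.3 to 37.4), Trav8d-2/Trbv2 by 31 (12.9%) and Trav6-7-dv9/Trbv29 by 23 (9.54%). Of the D+F pairs, Trav14-2/Trbv12-1 was held by 31 of 128 cells, 24.2% (17.1 to 32.6), Trav14-2/Trbv31 by 13 (10.2%), and Trav16/Trbv13-3 and Trav6-1/Trbv29 by 6 each (4.69%). Of the D+F+P pairs, Trav12-1/Trbv13-2 was held by 52 of 292 cells, 17.8% (13.6 to 22.7), and Trav14-3/Trbv15, Trav6n-6/Trbv29 and Trav8-1/Trbv12-2 by 12 each (4.11%). The shared lead of Trbv12-1 in aPD-1 and D+F therefore went with different alpha segments. In the control library the 7 cells with both calls held 7 pairs.

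The leading pair of aPD-1 was close to exclusive in both directions, those of D+F and D+F+P were not. Of the aPD-1 cells with Trav19 and a beta call, 75 of 78 (96.2%) had Trbv12-1, and of those with Trbv12-1 and an alpha call, 75 of 81 (92.6%) had Trav19. Of D+F+P cells with Trav12-1, 52 of 54 (96.3%) had Trbv13-2, whereas 71.2% of cells with Trbv13-2 had Trav12-1. Trav14-2 was split in the D+F library, with 31 of its 45 cells (68.9%) on Trbv12-1 and 13 (28.9%) on Trbv31, and of the 49 D+F cells with Trbv12-1 and an alpha call, 31 (63.3%) had Trav14-2.

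The 3 libraries differed in how evenly the pairs were filled. Pairs held by 3 or more cells numbered 13 in aPD-1, 12 in D+F and 31 in D+F+P, and contained 76.8% (70.9 to 81.9), 63.3% (54.3 to 71.6) and 72.6% (67.1 to 77.6) of cells with both calls. After thinning to 1000 UMIs, which left 46, 27 and 66 cells with both calls, these shares were 58.7%, 37.0% and 42.4%. The number of pairs needed to reach 50% of cells was 3 in aPD-1, 7 in D+F and 13 in D+F+P. The chance that 2 cells drawn from a library hold the same pair, the repeat probability, was 12.7%, 7.46% and 4.23%. In 100 cells, 34.4, 45 and 52.01 distinct pairs would be met. By the last 3 measures the aPD-1 library was the most and the D+F+P library the least concentrated, each value resting on 1 library. D+F had the lowest share of cells in pairs held by 3 or more cells. That share and the number of such pairs depend on how many cells had both calls, 241, 128 and 292, and D+F had the fewest.

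**Figure D2:**
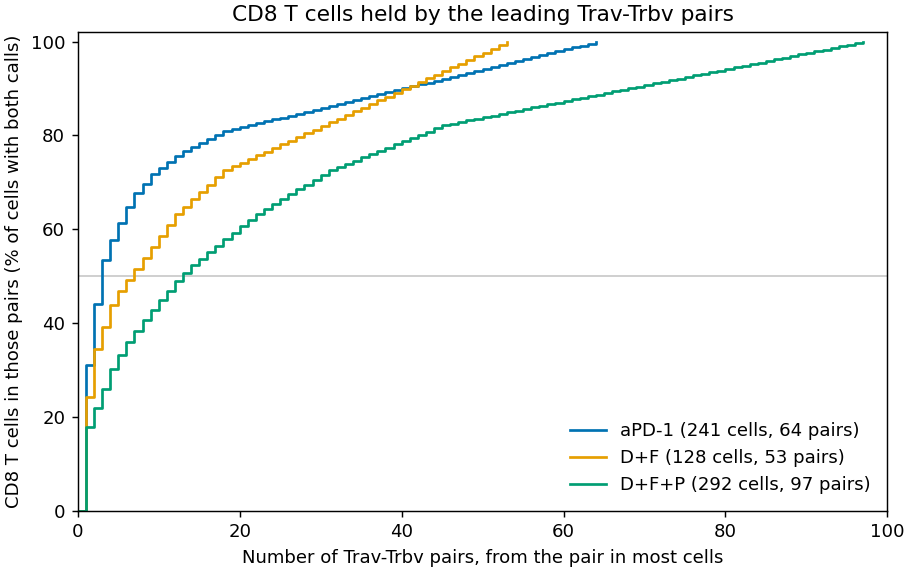
Cumulative share of CD8 T cells with both calls (y axis, %) held by the leading Trav-Trbv pairs (x axis, number of pairs from the largest down), 1 line per library. The grey line at 50% is reached with 3 pairs in aPD-1, 7 in D+F and 13 in D+F+P.

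With 1 exception, no pair held by 3 or more cells in 1 treated library was held by 3 or more in another. Of the 64 pairs of aPD-1 and the 53 of D+F, 8 were shared (12.5% and 15.1%), of the 64 and the 97 of D+F+P, 10 (15.6% and 10.3%), and of the 53 and 97, 15 (28.3% and 15.5%). Among pairs held by 3 or more cells in both libraries, the shared number was 0, 0 and 1, the 1 being Trav7-5/Trbv12-2 with 3 cells in D+F and 5 in D+F+P. Some repeated pairs were also in fewer cells of another library. Trav6-7-dv9/Trbv29 was in 23 aPD-1 cells and 1 D+F cell, and Trav6-7-dv9/Trbv14 in 3 aPD-1 and 2 D+F+P cells. Trav9-2/Trbv12-1 was in 3 D+F and 2 D+F+P cells. Trav19/Trbv12-1 and Trav14-2/Trbv12-1 were in 0 CD8 T cells of the other libraries, and Trav12-1/Trbv13-2 was in 1 aPD-1 and 1 D+F cell. The labels do not tie libraries to mice, so mouse and treatment cannot be told apart here.

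Some leading pairs carried a further V transcript that was seen less often in other cells, a comparison chosen after the values were seen. A T cell can rearrange both alleles of a receptor locus, and transcripts of a second rearranged segment are then inherited by its descendants. In the D+F library Trav6d-5 had a UMI in 8 of 13 Trav14-2/Trbv31 cells, 61.5% (31.6 to 86.1), against 2 of the other 229 CD8 T cells (0.873%). Among D+F+P cells, 23 of 52 Trav12-1/Trbv13-2 cells, 44.2% (30.5 to 58.7), had a Trbv3 UMI, against 41 of 594 other cells (6.90%). In the same 52 cells 19, or 36.5% (23.6 to 51.0), had a Trav9-2 UMI, against 15 of 594 (2.53%). Smaller cases were Trav9-1 in 4 of 12 Trav14-3/Trbv15 cells against 9 of 634, and Trav7-3 in 5 of 31 Trav14-2/Trbv12-1 cells against 1 of 211. The Trav19/Trbv12-1 cells had no such partner beyond Trav17 in 4 of 75 cells. Trav6d-5 was seen in 10 D+F cells and called in 0, since Trav14-2 had more UMIs in 8 of them. Of 34 D+F+P cells with a Trav9-2 UMI, 19 were called Trav12-1, and of 64 with Trbv3, 28 were called Trbv13-2. Trbv12-2, which lies 5' of Trbv13-2 in the locus, was seen in 12 of the 52 Trav12-1/Trbv13-2 cells (23.1%) and in 17.5% of other cells, and in 25.4% of other cells with both calls. Cells of these pairs were deeper than the rest, at median UMIs of 10910 against 4845 for Trav14-2/Trbv31 and 11677.5 against 4579.5 for Trav12-1/Trbv13-2, and the rest includes cells without a V call. Among the other cells with both calls, Trav6d-5 was in 0 of 115 (median 6186 UMIs), Trbv3 in 19 of 240 (7.92%, median 8278.5 UMIs) and Trav9-2 in 12 of 240 (5%). After thinning to 1000 UMIs few of these transcripts were left: Trav6d-5 in 1 of 13 against 0 of 115, Trbv3 in 4 of 52 (7.69%) against 9 of 234 (3.85%), and Trav9-2 in 2 of 52 (3.85%) against 3 of 234 (1.28%), levels too low to compare. Over all CD8 T cells, 2 Trbv genes at 2 or more UMIs each were found in 3.44% of aPD-1, 6.198% of D+F and 7.74% of D+F+P cells. Doublets and free RNA also give such cells, and their part was not tested.

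Among the few CD4 and Foxp3-positive T cells with both calls, most pairs were held by 1 cell. The 20 aPD-1 and the 22 D+F+P CD4 T cells with both calls held 20 and 22 different pairs. The 14 D+F cells held 12, with Trav16n/Trbv13-1 in 3 of them (21.4%, 4.66 to 50.8). That interval includes the 24.2% held by the leading pair of D+F CD8 T cells. Foxp3-positive T cells with both calls held 17 pairs in 17 cells, 11 in 11 and 18 in 19, the repeated one being Trav14-3/Trbv15 in 2 D+F+P cells. That pair was also the second of the CD8 T cells in this library, where Trav14-3/Trbv15 was held by 12. The pair was in 0 CD4 T cells, 0 T cells without a coreceptor UMI and 1 with both coreceptors. At least 1 of the 2 Foxp3-positive cells is therefore itself among the 12 CD8 T cells. In an equal sample of 14 cells, the CD8 T cells would give 8.65, 10.3 and 11.5 distinct pairs, against 14, 12 and 14 in CD4 T cells. On beta calls alone, the repeat probability was 17.0%, 12.3% and 9.67% in CD8 T cells of the 3 libraries and 4.31%, 4.33% and 5.41% in CD4 T cells. In Foxp3-positive cells it was 4%, 4.58% and 6.67%, with 18 called cells in D+F. CD8 T cells were thus the more concentrated class in 3 of 3 libraries on both measures. With 3 libraries the smallest two-sided p that an exact sign-flip test allows is 0.25, so no test was made.

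**Figure D3:**
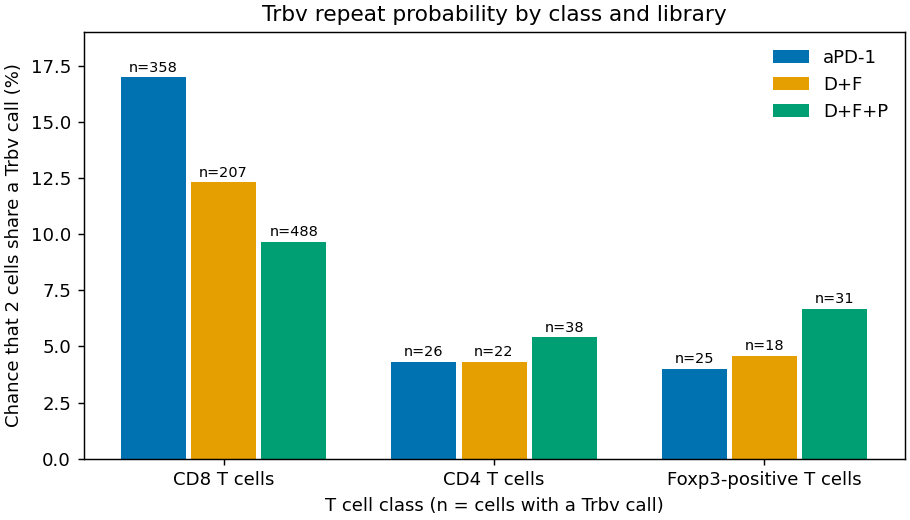
Chance in percent that 2 cells of a class and library share a Trbv call (y axis), for CD8, CD4 and Foxp3-positive T cells of the 3 treated libraries; n is the number of cells with a Trbv call. CD8 T cells stand at 9.67% to 17.0% and CD4 T cells at 4.31% to 5.41%.

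The segments used by CD4 T cells were spread more evenly. The 5 highest mean beta shares were those of Trbv13-2 (10.9%, 7.69% to 15.8% over the 3 treated libraries), Trbv13-1 (9.27%), Trbv15 (8.63%), Trbv19 (8.63%) and Trbv3 (7.35%), resting on 26, 22 and 38 called cells. Alpha means over the aPD-1 and D+F+P libraries, with 29 and 26 called cells, were led by Trav4-3 (10.5%), Trav7-4 (7.29%), Trav6-7-dv9 (7.10%), Trav4-4-dv10 (5.77%) and, level with each other, Trav16n and Trav19 (5.37%). Foxp3-positive T cells, which include regulatory T cells, had means over the same 2 libraries of 16.1% for Trbv19, 10.5% for Trbv13-2, 9.23% for Trbv31, 8.84% for Trbv15 and 8.45% for Trbv16. Their alpha means were 11.9% for Trav7-4, 11.5% for Trav6-7-dv9, 8.25% for Trav14-3 and 4.55% for Trav12-1, followed by 6 segments level at 4.12% (Trav10n, Trav13-2, Trav4-4-dv10, Trav5-1, Trav7-5 and Trav9-2). Trbv19 was at 16% and 16.1% in the Foxp3-positive cells of the 2 libraries, 4 of 25 and 5 of 31 cells.

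Set against CD4 T cells of the same library, beta usage of CD8 T cells differed most at Trbv12-1, by 19.4 percentage points on average (22.4% against 3.04%), though it was lower in D+F+P. Trbv29 was higher in CD8 T cells in 3 of 3 libraries, at 8.66%, 4.83% and 10.5% against 3.85%, 0 and 0, a mean difference of 6.70 points. Trbv17 was higher in 3 of 3 as well, mainly in D+F at 10.6% against 4.55%. Trbv2 averaged 4.64 points higher but was higher in only 2. In the other direction, Trbv13-1 averaged -7.27 points and was lower in 2 of 3 libraries. Trbv15 was lower in CD8 T cells in 3 of 3, at 0.279%, 0.483% and 3.89% against 11.5%, 9.09% and 5.26%, which is -7.08 points. Trbv1 (-5.21 points) and Trbv26 (-4.29 points) were lower in 3 of 3 too. For Trbv29 and Trbv17, each CD4 value rests on 0 or 1 cell, and for Trbv15, Trbv1 and Trbv26 on 1 to 3 cells. For these genes the intervals of the classes overlapped in every library except for Trbv15 in aPD-1. There Trbv15 was in 1 of 358 CD8 T cells (0.00707 to 1.55) against 3 of 26 CD4 T cells (2.45 to 30.2). For Trbv12-1 the intervals of the classes lay apart in aPD-1 and D+F and overlapped in D+F+P.

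**Figure D4:**
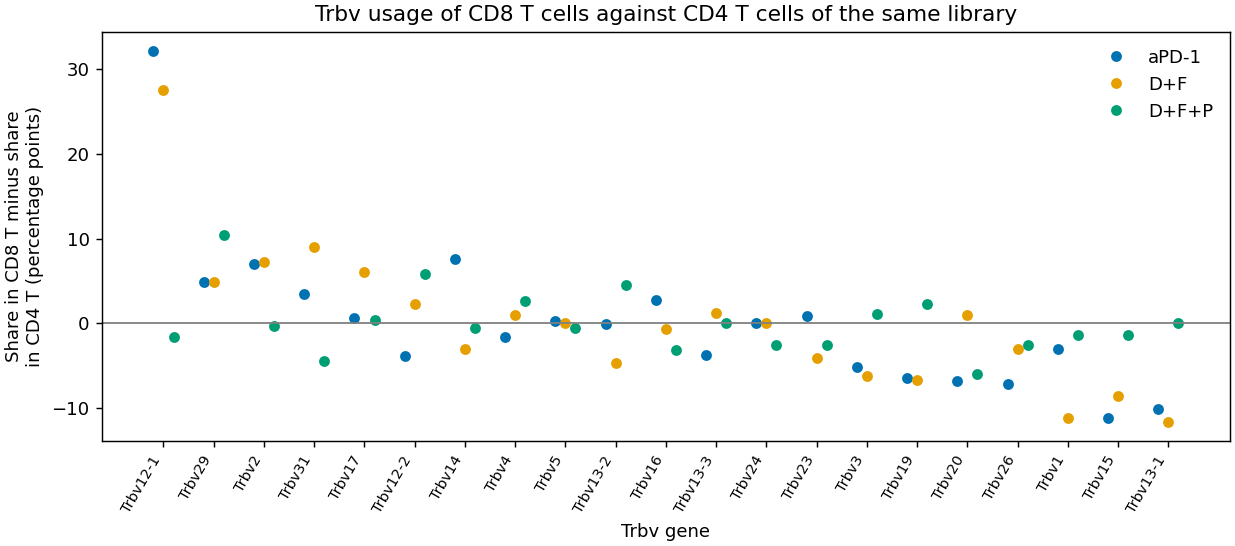
Difference in Trbv share between CD8 and CD4 T cells of the same library (y axis, percentage points) for 21 genes, 1 point per treated library, ordered by mean difference. Trbv29 and Trbv17 lie above 0 and Trbv15, Trbv1 and Trbv26 below 0 in all 3 libraries.

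Alpha differences between the classes could be read in the aPD-1 and D+F+P libraries only. Trav8d-2 averaged 10.9 points higher in CD8 T cells, Trav19 9.34 and Trav12-1 6.12, of which Trav8d-2 alone was higher in both libraries (21.3% and 0.615% against 0 and 0). Trav4-3 averaged -9.83 points, Trav7-4 -6.46 and Trav4-4-dv10 -5.15. Trav4-3 was carried by 5 of 29 CD4 T cells in aPD-1 (17.2%) and 1 of 26 in D+F+P (3.85%), against 3 of 268 and 1 of 325 CD8 T cells. Trav1, the segment of mucosal-associated invariant T cells, had a UMI in 2, 1 and 1 CD8 T cells of the treated libraries and in 1 CD4 T cell of D+F.

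The leading pairs were looked for in the other classes too. Of the 3 leading pairs of each library, 0 cells were CD4 T cells, and 1 barcode without a Cd3 UMI held Trav12-1/Trbv13-2. Foxp3 was detected in 1 cell with Trav14-2/Trbv12-1 and 2 with Trav14-3/Trbv15. The Foxp3-positive class overlaps the CD8 class, with 3, 5 and 6 cells in both. The 1 Trav14-2/Trbv12-1 cell was also a CD8 T cell, as was at least 1 of the 2 Trav14-3/Trbv15 cells. Between all CD8 pairs and the pairs of CD4 T cells of the same library, 0, 1 and 3 were shared, covering 0 of 20, 1 of 14 and 3 of 22 CD4 cells. One of them, Trav9-2/Trbv13-2, combines the beta segment of the leading D+F+P pair with its frequent second alpha transcript, and was also called in 4 CD8 T cells and 1 Foxp3-positive cell.

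CD8 T cells whose pair was held by 3 or more cells were set beside those whose pair was held by 1 cell, within each library, over 24 genes of T cell state. The first set held 185, 81 and 212 cells and the second 46, 35 and 52. Median UMIs were 7168 against 6518 in aPD-1, 6999 against 4842 in D+F and 10538.5 against 6187.5 in D+F+P. The first set was thus the deeper one in each library. Over all genes, the median log2 ratio of its shares was -0.04 in aPD-1, 0.35 in D+F and 0.26 in D+F+P. The share of all genes higher in 3 of 3 libraries was 29.6% before thinning and 13.3% after thinning each cell to 1000 UMIs. Of 20 state genes seen in enough cells in every library, 14 were higher in 3 of 3 before thinning and 8 after. The 8 were Pdcd1 (the receptor PD-1), Tox (a transcription factor of chronically stimulated T cells), Tnfrsf9 (the costimulatory receptor 4-1BB), the cytotoxic genes Gzmb, Gzmf and Prf1, the chemokine gene Ccl5 and the chemokine receptor gene Cxcr6. By CPM, 8 of 20 were higher in 3 of 3 (12.6% of all genes), among them Pdcd1, Tnfrsf9, Gzmf, Prf1 and Cxcr6 again. At 2-fold or more before thinning, Gzmc and Gzmf were higher in aPD-1 (2 of 21, against 6.85% of all genes), Entpd1, Gzmc and Gzmf in D+F (3 of 20, against 16.0%) and Gzmf in D+F+P (1 of 23, against 11.9%). Lower by 2-fold were Ccr7, Cxcr3 and Il7r in aPD-1 (3 of 21, against 7.21%), Ccr7 and Cxcr3 in D+F (2 of 20, against 1.25%) and Il7r and Tcf7 in D+F+P (2 of 23, against 2.01%).

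The values of these genes by library were as follows. Before thinning, Pdcd1 had a UMI in 91.9%, 82.7% and 88.7% of cells with a repeated pair and in 84.8%, 68.6% and 67.3% of cells with a single one, and after thinning in 46.7%, 48.1% and 48.1% against 26.1%, 34.3% and 30%. Tnfrsf9 stood at 89.7%, 86.4% and 82.5% against 60.9%, 54.3% and 59.6%, and after thinning at 46.2%, 48.1% and 35.6% against 26.1%, 28.6% and 32%. Gzmf, a granzyme gene, stood at 35.7%, 28.4% and 23.6% against 15.2%, 11.4% and 7.69%, and at 1520, 647 and 231 CPM against 532, 120 and 84.6. For these 3 genes the repeated set was the higher in each library and on each scale. Prf1, which encodes perforin, stood at 710, 510 and 453 CPM against 344, 249 and 406. Gzmb stood at 2265, 2449 and 2614 CPM against 1379, 1279 and 2774, so the CPM of D+F+P went the other way.

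Cxcr3, Ccr7, Tcf7 and Il7r went in the opposite direction. Cxcr3, a chemokine receptor gene, had a UMI in 3.24%, 4.94% and 18.9% of cells with a repeated pair against 26.1%, 17.1% and 34.6% of cells with a single one. Ccr7, a lymph node homing receptor gene, stood at 7.57%, 12.3% and 10.8% against 19.6%, 25.7% and 11.5%. These 2 were lower in 3 of 3 libraries among 20 genes (4.07% of all genes), and stayed so after thinning (6 of 20, against 10.9% of all genes) and by CPM (4 of 20, against 15.8%). Tcf7, the transcription factor TCF1 of naive and memory T cells, was seen in 1.62%, 2.47% and 5.66% against 10.9%, 11.4% and 13.5%. Il7r, the interleukin-7 receptor gene, was seen in 3.78%, 2.47% and 6.60% against 8.70%, 2.86% and 13.5%. Tcf7 and Il7r were not among the 20 genes, since too few D+F cells had a UMI of them. Gzmk, the granzyme of early effector memory cells, depended on the scale. It stood at 136, 109 and 230 CPM against 249, 168 and 239, lower in 3 of 3, but had a UMI in 38.4%, 46.9% and 64.2% of cells with a repeated pair against 52.2%, 40% and 50%, higher in 2 of 3. Ly6c2, a memory-associated gene, stood at 222, 290 and 583 CPM against 603, 441 and 662, while its shares of 44.3%, 75.3% and 70.3% against 76.1%, 68.6% and 71.2% were higher in 1 of 3. After thinning, both were lower in 3 of 3. Havcr2, Entpd1, Lag3, Tigit, Ifng and Gzmc were higher in 3 of 3 before thinning, but after thinning Havcr2 was lower in 3 of 3 and the other 5 were mixed. With Gzmk and Ly6c2, the proliferation genes Mki67 and Top2a and the receptor gene Klrg1 were the 5 genes that were mixed before thinning. Set by set, the median log2 ratio of the list was 0.16, 0.42 and 0.26, against -0.04, 0.35 and 0.26 over all genes.

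**Figure D5:**
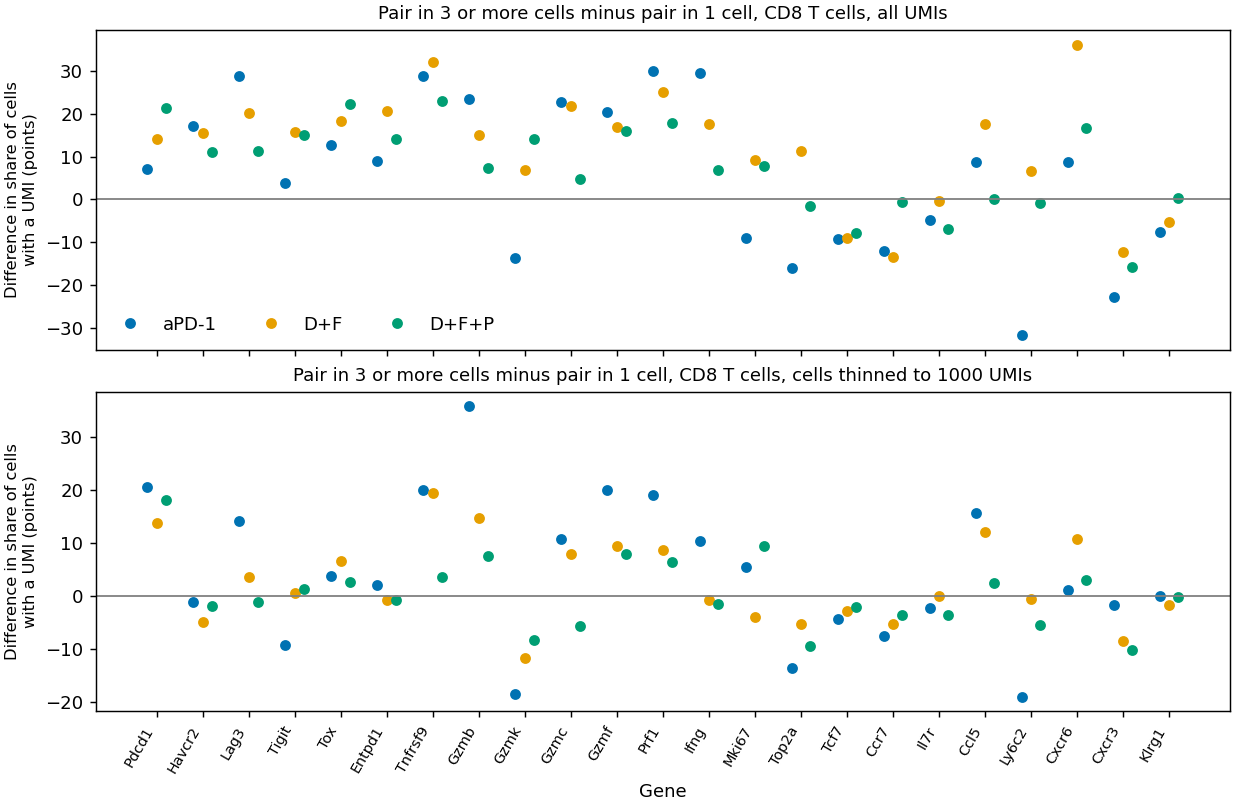
Difference in the share of CD8 T cells with a UMI (y axis, percentage points) between cells whose Trav-Trbv pair is held by 3 or more cells and cells whose pair is held by 1, for 23 of the 24 genes, 1 point per library. The upper panel uses all UMIs and the lower panel cells thinned to 1000 UMIs, where Havcr2 lies below 0 and Pdcd1, Tnfrsf9, Gzmf and Prf1 stay above 0 in all 3 libraries.

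The single largest pairs showed the same genes at high shares. Pdcd1 had a UMI in 72 of 75 Trav19/Trbv12-1 cells (96%), 27 of 31 Trav14-2/Trbv12-1 cells (87.1%) and 50 of 52 Trav12-1/Trbv13-2 cells (96.2%), and Prf1 in 82.7%, 64.5% and 94.2%. Gzmf was more variable, in 36%, 19.4% and 44.2%, and in 12 of 23 Trav6-7-dv9/Trbv29 cells (52.2%). Cxcr3 was in 3 of 75, 0 of 31 and 3 of 52. With the largest pair of each library left out, the same 14 genes of 20 were higher in 3 of 3 libraries before thinning, against 26.4% of all genes. The remaining sets were still deeper than the cells with a single pair, at median UMIs of 6894.5, 8148 and 9689.5. After thinning, 7 of 20 were higher in 3 of 3 (12.4% of all genes), namely Pdcd1, Gzmb, Gzmf, Prf1, Ccl5, Cxcr6 and Lag3. Lower in 3 of 3 were Ccr7 and Cxcr3 before thinning (2 of 20, against 3.46%), and these with Gzmk, Havcr2 and Top2a after it (5 of 20, against 12.2%).

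Genes of the constant parts of the receptor and of its signalling stayed within 2-fold of each other in CD8 T cells of the treated libraries where they could be compared. Of 21 genes of the receptor complex and its signalling, 14 were seen in at least 10 CD8 T cells, and 0 of 14 was 2-fold higher or lower between any of the 3 couples of treated libraries, where 1.65% to 10.3% of all genes were higher and 1.60% to 5.47% lower. Their median log2 ratios were -0.07, -0.13 and -0.05. At the shares given for all genes, few of 14 genes would be called, so 0 of 14 says little. Cd3e was in 97.3%, 93.8% and 90.6% of cells, and a 2-fold higher share is not possible for genes detected so widely. Trac, the alpha constant gene, was detected in 70.8%, 64.5% and 64.7% of CD8 T cells of the treated libraries, Trbc1 in 23.1%, 26.4% and 26.9%, and Trbc2 in 56.3%, 53.3% and 51.7%. The CD3 chains Cd3d, Cd3e and Cd3g stood at 914 to 974, 1042 to 1209 and 1187 to 1371 CPM in these libraries, and Cd247, the zeta chain, at 174 to 223 CPM. The kinases Lck and Zap70 were in 73.8% to 88.0% and 57.1% to 65.6% of cells, the adaptor Lat in 72.5% to 80.8%, the phosphatase Ptprc in 75.2% to 83.6% and the costimulator Cd28 in 55.8% to 67.3%. Tcrg-C2, a gamma chain constant gene, had a UMI in 7.86%, 9.09% and 7.28% of CD8 T cells, while Tcrg-C1 and Tcrg-C4 were under 1.3% and Trdc was seen in 0, 0 and 2 cells. The recombination genes Rag1 and Rag2 and the pre-T cell receptor gene Ptcra had 0 UMIs in CD8 and CD4 T cells of all 4 libraries. Dntt, which adds bases at the junction, had 1 UMI.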

How the data were processed

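Droplets of dissociated B16F10 tumours were sequenced as 5' gene expression libraries on a 10x V(D)J chemistry, per the labels' protocols. What the authors deposited are matrices of raw UMI counts (per the file headers, whole numbers for each gene in each droplet), not normalized. The submitters' processing notes name Cell Ranger 3.1.0 and GRCm38 (mm10), and the annotation release is not given in the sources used here. The receptor-enriched sequences were not used here. The 4 libraries held 2529, 2525, 2809 and 2739 barcodes and 34444856, 27216211, 31937128 and 22691663 UMIs (control, aPD-1, D+F, D+F+P).

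A barcode was kept when it had 300 or more genes, 500 or more UMIs and a mitochondrial share no higher than 20%. No doublet caller was run, and doublets remain. Ties between V genes were left uncalled. A class was averaged over libraries with at least 20 called cells. CPM values are a gene summed over a set of cells and scaled by all UMIs of that set. With 1 library per group no test was made. The members, gene lists and comparisons were chosen with earlier results of these data known. Named were all Trbv genes, the 5 highest Trbv and Trav means per class, the 3 furthest each way between classes and between libraries, the 3 largest pairs, Trav1, Trav11, Trav11d, Trbv1 and genes of both lists, of which 1 each is not reported here by name. Second V genes within pairs with their thinning, thinning and CPM of the state genes, and leaving out the largest pair were chosen after seeing the data. Sequences and copy identity come from GENCODE M21 on GRCm38 (edlib 1.3.9.post1). The calling was tested on simulated receptors before use, where 97.6% to 100% of calls were right. Each simulated cell had 1 true gene per chain, so cells with a second rearranged gene and doublets were not covered. Python 3.11.15, numpy 2.4.6, scipy 1.17.1 and matplotlib 3.10.9 were used. The 12 other settings tried were of the calls, barcode and T cell filters, thinning, cells with 2 Trbv genes, UMI counting, distinct pairs and leaving out each library.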

Additional observations from a re-analysis of the deposited data

Results flagged for a closer look

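Trav4-4-dv10 gave a signal in barcodes outside the T cell comparisons. Over the 4 libraries, 197 of 5096 barcodes with 10 or more pigment gene UMIs and no Cd3 UMI (3.87%) had a UMI of this segment, against 26 (0.510%) with a UMI of any of the other Trav members. The share was 3.28% in control, 4.22% in aPD-1, 3.81% in D+F and 5.78% in D+F+P, and these barcodes held 211 of its 254 UMIs (83.1%). In CD8 T cells it was seen in 0 of 20, 0 of 407, 0 of 242 and 6 of 646. Its calls in CD4 T cells (3 of 26 in D+F+P) stand beside this background, and the source of the UMIs was not tested.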

How the results depend on the processing

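No paired analysis was possible because each group has 1 library. The share of the leading pair stayed within its counting interval under all 7 alternatives that give it in each library, at 30.4% to 32.6% for Trav19/Trbv12-1, 24.2% to 30.7% for Trav14-2/Trbv12-1 and 14.6% to 20.9% for Trav12-1/Trbv13-2. The pair repeat probability in D+F moved to 11.5% when calls needed 2 UMIs. Thinning to 1000 UMIs lowered the cells in pairs held by 3 or more cells to 58.7% in aPD-1, 37.0% in D+F and 42.4% in D+F+P, with fewer cells called. Trbv12-1 fell to 25.9% of aPD-1 CD8 T cells counted in UMIs and to 10.9% with each distinct pair counted once, which gave 17.0% in D+F. Trbv13-2 in D+F+P was 24.3% in UMIs and 7.22% with distinct pairs counted once. Beta call rates in CD8 T cells were 77.9%, 77.3% and 64.6% in the 3 treated libraries with 2 UMIs required, 92.9%, 91.4% and 91.0% with the strict barcode filter (1000 genes, 2000 UMIs, 10% mitochondrial), and 38.5%, 58.5%, 58.6% and 61.4% in control and the treated libraries after thinning. Without low-ribosomal barcodes they were 91.0% in aPD-1 and 86.8% in D+F+P, and with 2 Cd3 and coreceptor UMIs 90.1% in D+F and 89.0% in D+F+P. The strict filter put the CD4 repeat probability of aPD-1 at 2.34% and the members higher in D+F than in aPD-1 at 5. The share of all genes was not computed under that filter, so this count cannot be set against a background. Thinning put the members higher at 3, 9 and 6 (5.82%, 12.6% and 14.9% of all genes). It put the lower ones at 8 in D+F+P against aPD-1 (3.55% of all genes) and 4 against D+F (4.55%). The CD8 minus CD4 difference of Trbv2 turned to -0.480 points with distinct pairs counted once. Of 160 alternative values of the named means and differences, 154 stayed within 1 SD over libraries, among them those without 1 library. Leaving out 1 of 3 libraries cannot move such a mean by 1 SD, and control was in none of these means. The values without 1 library therefore could not fall outside and are no check. The causes of these shifts were not tested. With 20 control CD8 T cells, depth limits every statement about that library, and 6 to 52 CD4 T cells per library limit those about CD4 T cells.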
